A study of Mus musculus with 22 samples.

Results

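The clock output genes described here are transcripts known from other work to be driven by the circadian oscillator without being part of it. The list named 10 genes, Wee1, Usp2, Tspan4, Lonrf3, Por, Alas1, Cdkn1a, Dtx4, Gys2 and Tfrc. A gene was measured by the brightest probe set that carries its symbol alone, and 8 of the 10 have such a probe set, among 13967 genes kept in all. The only annotated probe set of Cdkn1a also carries the symbol of another gene and Por has none in the annotation used, so neither is given values. Each of the 8 has exactly 1 such probe set, and all 8 passed the filter on dim probe sets.

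The samples are kidneys of mice lacking the transcription factor Clock, labelled clock(-/-) and called KO here, and of wild-type (WT) mice. The KO colony was bred from heterozygous pairs, and the loss is in the whole animal. All mice, KO and WT alike, lived for 2 weeks in 12 h of light and 12 h of dark and then 30 h in constant darkness. Kidneys were collected every 4 h at 6 zeitgeber times (ZT), where ZT0 and ZT12 are the former times of lights on and lights off, so ZT12 to ZT24 is the subjective night. Each of the 22 arrays, 11 KO and 11 WT, held RNA of 2 or 3 mice, with 2 pools per genotype and time except 1 KO pool at ZT16 and 1 WT pool at ZT8. Strain, age and sex are not given in the labels.

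In the mammalian clock, Clock and Arntl form a dimer that binds E-box sequences and turns on Per, Cry, Nr1d1, Dbp and many output genes. Per and Cry proteins then repress the dimer, Nr1d1 and Ror proteins act on ROR elements, and Dbp and Nfil3 compete at D-boxes, so that outputs peak at different times by the elements they carry. Npas2 can stand in for Clock in some tissues. The output genes carry the rhythm into cell division, protein turnover, heme and glycogen synthesis and iron uptake. An array of whole tissue reads RNA per total RNA, so fewer cells of a type and less RNA per cell cannot be told apart.

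Promoter sequence from RefSeq (GRCm38.p6), covering 250 bases before to 50 bases after a gene start, was at hand for 5 of the 8 measured genes, in 8 windows. The 3 windows below belong to the most tightly co-varying pair of output genes, Tspan4 and Usp2, and to Lonrf3, which ran in another phase. Of the Tspan4 windows only the one with the E-box CACGTG is shown. The 2 of the 8 windows that hold this E-box are therefore both among the 3. All 3 lie on the plus strand and are written 5′ to 3′, with the E-box CACGTG in capitals.
Tspan4, chr7:141476130-141476429: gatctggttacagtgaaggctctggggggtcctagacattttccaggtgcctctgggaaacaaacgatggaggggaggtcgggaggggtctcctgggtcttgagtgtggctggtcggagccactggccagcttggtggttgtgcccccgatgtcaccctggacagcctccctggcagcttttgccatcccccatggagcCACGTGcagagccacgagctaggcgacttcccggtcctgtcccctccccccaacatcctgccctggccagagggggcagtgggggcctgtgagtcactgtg
Lonrf3, chrX:36328159-36328458: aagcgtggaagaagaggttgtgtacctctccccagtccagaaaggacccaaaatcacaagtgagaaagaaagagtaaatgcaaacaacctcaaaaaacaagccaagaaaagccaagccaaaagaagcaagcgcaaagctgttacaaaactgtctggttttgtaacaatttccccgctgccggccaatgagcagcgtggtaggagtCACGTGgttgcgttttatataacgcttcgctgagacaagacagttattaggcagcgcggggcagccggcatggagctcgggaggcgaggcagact
Usp2, chr9:44084670-44084969: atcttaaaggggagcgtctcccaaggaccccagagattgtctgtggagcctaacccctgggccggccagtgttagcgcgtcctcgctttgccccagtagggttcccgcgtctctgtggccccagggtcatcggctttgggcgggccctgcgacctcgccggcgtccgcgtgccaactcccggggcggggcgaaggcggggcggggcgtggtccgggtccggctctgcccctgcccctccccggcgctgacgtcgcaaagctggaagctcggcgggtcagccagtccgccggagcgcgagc

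The E-box CACGTG, which reads the same on both strands, occurs once in the Tspan4 window, 51 bases before the start, and once in the Lonrf3 window, 45 bases before it. It occurs in neither the Usp2 window nor the other Tspan4 window, nor in those of Alas1 and Tfrc. Of 32851 mouse promoter windows, 7.15% hold it. The variant E-box CACGTT, the D-box TTANGTAA, the ROR elements TAGGTCA and TGGGTCA and the palindromic glucocorticoid element were searched on both strands. They occur in 4.68%, 2.32%, 2.61%, 3.98% and 0.475% of all windows, and in 0 of the 8 windows of these genes. These matches describe letters and not bound sites.

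The arrays carry log2 expression after RMA (robust multi-array average), in which 1 unit is a doubling. Array medians lay between 5.88 and 6.01, and any pair of arrays correlated at 0.980 or more. The Clock probe set itself read 8.95 ± 0.11 in KO and 8.86 ± 0.24 in WT (SD, n = 11 each), and its level passed the test as higher in KO (0.13 ± 0.04 log2, adjusted p = 0.0398). It sums probes along the transcript and which part of the gene is deleted is not stated in the labels, so it does not check the genotype. Tubule markers stood among the brightest probe sets, with Lrp2 and Slc34a1 at percentiles 99.7 and 99.9. Of 5 adrenal markers, 0 passed the filter. Of 5 markers each, 4 of liver, 4 of adipose tissue and 5 of urothelium and smooth muscle passed it. The liver marker Alb was lower in KO (-0.97 ± 0.13, adjusted p = 5.16e-05) and Ttr, another, was higher (0.41 ± 0.07, adjusted p = 0.000624). The summed level of the adipose markers ranged from 7.36 to 9.70 log2 in KO and from 7.52 to 8.46 in WT. The part of other tissues in the results was not tested. Rhythm was modelled by limma as a 24 h cosine wave per genotype, in which the amplitude is the height of the peak over the mean and errors after ± are standard errors unless SD is written. The threshold for a call was a p of 0.05 after Benjamini-Hochberg adjustment over all 13967 genes.

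As a group, the output genes were mostly rhythmic in WT kidneys, and the number called rhythmic in KO kidneys depended on the settings. The genes were listed with earlier results of these data known. Shares of all genes are therefore given as a scale and not as a test. In WT, 7 of the 8 were rhythmic, against 6.48% of all genes. In KO, 4 of the 8 were rhythmic (Tspan4, Alas1, Dtx4 and Tfrc), against 2.46% of all genes, and all 4 were also rhythmic in WT, against 1.13% of all genes rhythmic in both genotypes. With array weights 7 were called in KO and 7 in WT, and shares of all genes were not taken under that setting. Without weights, a difference in rhythm between genotypes was called in 0 of the 8, against 0.043% of all genes. At an unadjusted p under 0.05 it held in 5 of the 8, against 7.78%. Averaged over the cycle, 4 were lower in KO (Tspan4, Gys2, Alas1 and Usp2), against 3.9% of all genes, and 1 was higher (Dtx4), against 5.23%. The median difference in level of the 8 was -0.22 log2, beside 0.00 for all genes. Over all 11 arrays a genotype, KO and WT values of each of the 8 overlapped, and 0.136% of all genes did not overlap. Within single times, pools of KO and WT did not overlap in 33.9% of all genes at ZT0, 25.9% at ZT4, 74.4% at ZT8, 32.1% at ZT12, 65% at ZT16 and 53% at ZT20, with 1 WT pool at ZT8 and 1 KO pool at ZT16. Among the 8 genes this held for 5, 1, 7, 8, 8 and 5 in the same order of times.

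**Figure D1:**
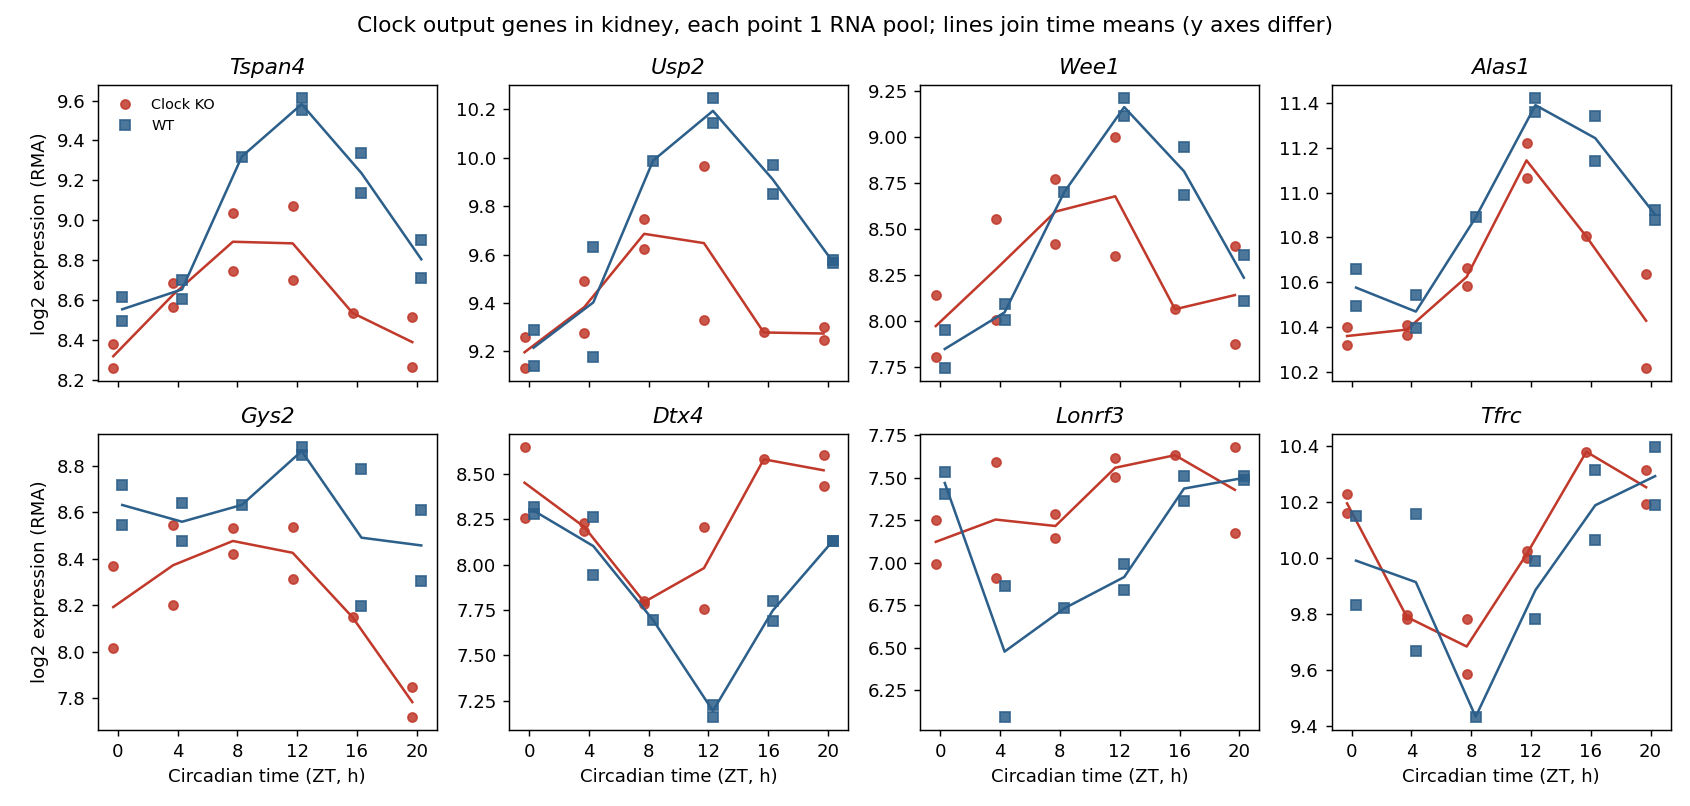
Log2 expression of the 8 measured output genes against circadian time in hours, with each Clock KO pool as a circle and each WT pool as a square, and lines through the time means. Tspan4, Usp2, Wee1 and Alas1 are highest at ZT12 in WT, Dtx4 is lowest there, and the KO pools at ZT16 and ZT20 lie below WT for Tspan4, Usp2, Alas1 and Gys2.

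Wee1 is the kinase that holds back entry into mitosis by phosphorylating Cdk1, and a classical E-box output. KO pools measured 8.14 and 7.80 (ZT0), 8.00 and 8.55 (ZT4), 8.42 and 8.77 (ZT8), 8.35 and 8.9999 (ZT12), 8.06 (ZT16), and finally 7.87 and 8.41 (ZT20). WT pools measured 7.95 and 7.74 (ZT0), 8.00 and 8.09 (ZT4), 8.70 (ZT8), 9.21 and 9.11 (ZT12), 8.68 and 8.94 (ZT16), and finally 8.36 and 8.11 (ZT20). The WT pools climbed to ZT12 and fell back, while KO pools of the same time spread widely, and the genotypes were apart in the early night alone.

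The amplitude of Wee1 was 0.33 ± 0.08 log2 in KO (adjusted p = 0.0801) and 0.65 ± 0.09 in WT (adjusted p = 0.000245), the largest WT amplitude among the 8. With array weights the KO rhythm was called (adjusted p = 0.0311). That is a fitted peak-to-trough ratio of 1.59 in KO and 2.46 in WT. Its mean level did not pass the test (-0.16 ± 0.09, adjusted p = 0.271). It differed by -0.34 within pool 1 arrays (adjusted p = 0.0347) and by 0.09 within pool 2 arrays, the opposite direction. Of 14 measured cell-cycle and p53 genes around Wee1, among them Cdk1, Pkmyt1 and Mdm2, 0 were called for level or for rhythm in either genotype by limma. At an unadjusted p under 0.05, 0 of the 14 differed in level, 8 were rhythmic in KO and 1 in WT. At that threshold 14.1% of all genes were higher in KO and 11% lower, and 13.8% were rhythmic in KO and 22.6% in WT. The summed level of 4 markers of proliferating cells ranged from 7.43 to 9.19 log2 in KO and from 7.41 to 8.45 in WT, and its part in the result of Wee1 was not tested.

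Usp2 is a deubiquitinase whose known substrates include Mdm2 and the clock proteins Per1 and Arntl. KO pools measured 9.13 and 9.26 (ZT0), 9.28 and 9.49 (ZT4), 9.62 and 9.75 (ZT8), 9.33 and 9.97 (ZT12), 9.28 (ZT16), and finally 9.25 and 9.30 (ZT20). WT pools measured 9.29 and 9.14 (ZT0), 9.63 and 9.18 (ZT4), 9.99 (ZT8), 10.14 and 10.24 (ZT12), 9.97 and 9.85 (ZT16), and finally 9.57 and 9.58 (ZT20). The genotypes overlapped at ZT0 and ZT4, and every KO pool lay below every WT pool from ZT8 to ZT20.

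Usp2 was lower in KO by -0.28 ± 0.07 log2 (adjusted p = 0.00833), a ratio of 0.821 of KO to WT. The difference was -0.45 within pool 1 arrays (adjusted p = 0.00197) and -0.05 within pool 2 arrays (adjusted p = 0.835). The difference between pools was widest in KO at ZT12, where pool 2 read 0.64 above pool 1. Its amplitude was 0.25 ± 0.06 in KO (adjusted p = 0.0789) and 0.48 ± 0.06 in WT (adjusted p = 0.000288). The KO rhythm was called without KO pool 1 at ZT12 (adjusted p = 0.02) or without WT pool 2 at ZT4 (adjusted p = 0.0487), and with all pools kept under array weights (adjusted p = 0.0156). The level call was lost when the ZT20 pools of both genotypes were left out (-0.30, adjusted p = 0.0621).

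Lonrf3 encodes a protein of the LON-domain and RING-finger family, whose members are predicted ubiquitin ligases. KO pools measured 6.99 and 7.25 (ZT0), 6.91 and 7.59 (ZT4), 7.15 and 7.28 (ZT8), 7.501 and 7.61 (ZT12), 7.63 (ZT16), and finally 7.18 and 7.68 (ZT20). WT pools measured 7.53 and 7.40 (ZT0), 6.09 and 6.86 (ZT4), 6.73 (ZT8), 6.84 and 6.99 (ZT12), 7.36 and 7.51 (ZT16), and finally 7.49 and 7.51 (ZT20). WT pools dropped from ZT0 to ZT4 and recovered by ZT16. KO pools read higher than WT from ZT4 to ZT16, with 1 WT pool at ZT8 and 1 KO pool at ZT16. At ZT0 the KO pools lay below the WT pools (-0.35 ± 0.23 log2), and at ZT20 the genotypes overlapped.

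The WT amplitude of Lonrf3 was 0.55 ± 0.10 (adjusted p = 0.00687), with a fitted peak at ZT19.2. The KO amplitude was 0.24 ± 0.10 (adjusted p = 0.471). The level was 0.29 ± 0.10 log2 higher in KO and missed the threshold (adjusted p = 0.0676). Without WT pool 1 at ZT0 the adjusted p was 0.0452, and without WT pool 2 at ZT4 it was 0.0487. With all pools kept and array medians subtracted it was 0.0403. Its paralog Lonrf1 had fitted peaks at ZT9.72 in KO and ZT12.3 in WT, and it was lower in KO by -0.37 ± 0.09 (adjusted p = 0.0132). Of 13 measured ubiquitin proteases and ligases around Usp2 and Lonrf3, Lonrf1 was the only level call, and 3 were rhythmic in KO and 4 in WT.

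Dtx4 is a Deltex-family ubiquitin ligase; Deltex proteins are known as regulators of Notch. KO pools measured 8.65 and 8.26 (ZT0), 8.23 and 8.18 (ZT4), 7.79 and 7.80 (ZT8), 8.21 and 7.76 (ZT12), 8.58 (ZT16), and finally 8.61 and 8.43 (ZT20). WT pools measured 8.28 and 8.32 (ZT0), 7.94 and 8.26 (ZT4), 7.69 (ZT8), 7.16 and 7.23 (ZT12), 7.80 and 7.69 (ZT16), and finally 8.13 and 8.13 (ZT20). The trough lay at ZT8 in KO and at ZT12 in WT, and KO pools were higher than WT at every time from ZT8 on. At ZT8, with 1 WT pool, the difference was only 0.10 ± 0.18 log2.

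Dtx4 was the 1 output gene called higher in KO, by 0.39 ± 0.07 log2 (adjusted p = 0.000678), a ratio of 1.31. The difference was 0.51 within pool 1 arrays (adjusted p = 0.00557) and 0.21 within pool 2 arrays (adjusted p = 0.492). At ZT12 it reached 0.79 ± 0.15 log2, a ratio of 1.73, which missed the threshold over all genes (adjusted p = 0.0558). The amplitude was 0.37 ± 0.06 in KO (adjusted p = 0.00938) and 0.51 ± 0.07 in WT (adjusted p = 0.00017). Of 15 measured Deltex and Notch genes, 2 were higher in KO, the ligand Jag1 (0.16 ± 0.05, adjusted p = 0.0454) and the Notch target Hes1 (0.16 ± 0.05, adjusted p = 0.0338), and 0 were lower or rhythmic in either genotype by limma. At an unadjusted p under 0.05, 2 were higher and 2 lower in KO, against 14.1% and 11% of all genes. Rhythmic at that threshold were 2 in KO and 3 in WT, against 13.8% and 22.6% of all genes.

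Tspan4 is a tetraspanin, a membrane protein that organises other membrane proteins and is known from migrasomes. KO pools measured 8.26 and 8.38 (ZT0), 8.57 and 8.69 (ZT4), 8.75 and 9.04 (ZT8), 8.70 and 9.07 (ZT12), 8.54 (ZT16), and finally 8.52 and 8.27 (ZT20). WT pools measured 8.62 and 8.50 (ZT0), 8.70 and 8.61 (ZT4), 9.32 (ZT8), 9.55 and 9.61 (ZT12), 9.14 and 9.34 (ZT16), and finally 8.71 and 8.90 (ZT20). KO pools lay below WT pools at every time but ZT4.

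Tspan4 was lower in KO by -0.41 ± 0.05 log2 (adjusted p = 3.72e-05), a ratio of 0.755 and the strongest level call of the 8. It differed by -0.45 within pool 1 arrays (adjusted p = 0.00197) and -0.34 within pool 2 arrays (adjusted p = 0.139). The amplitude was 0.31 ± 0.05 in KO (adjusted p = 0.00717) and 0.52 ± 0.05 in WT (adjusted p = 7.49e-06). Tspan4 was the only one of the 8 whose WT rhythm was called within pool 2 arrays (adjusted p = 0.0313). Of 17 other measured tetraspanins, 6 were higher in KO, including Tspan1 (0.34 ± 0.07, adjusted p = 0.00278) and Tspan15 (0.29 ± 0.06, adjusted p = 0.00182), and Tspan13 was lower (-0.49 ± 0.07, adjusted p = 0.000216). In that family, 1 gene was rhythmic in WT, Tspan14 with an amplitude of 0.17 (named after its value was seen), and 0 in KO by limma. In KO 1 had an unadjusted p under 0.05, against 13.8% of all genes.

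Alas1 makes the first and rate-limiting step of heme synthesis outside red cells, and heme is in turn a ligand of Nr1d1. KO pools measured 10.32 and 10.40 (ZT0), 10.41 and 10.37 (ZT4), 10.58 and 10.66 (ZT8), 11.07 and 11.22 (ZT12), 10.80 (ZT16), and finally 10.64 and 10.22 (ZT20). WT pools measured 10.66 and 10.49 (ZT0), 10.40 and 10.54 (ZT4), 10.89 (ZT8), 11.42 and 11.36 (ZT12), 11.14 and 11.34 (ZT16), and finally 10.92 and 10.88 (ZT20). Both genotypes peaked at ZT12, and KO pools lay below WT pools at every time but ZT4.

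Alas1 was lower in KO by -0.28 ± 0.06 log2 (adjusted p = 0.00256), a ratio of 0.822. The differences within pool 1 and pool 2 arrays were -0.27 and -0.32, with adjusted p of 0.0662 and 0.451. Its amplitude was 0.38 ± 0.06 in KO (adjusted p = 0.00362) and 0.46 ± 0.05 in WT (adjusted p = 7.77e-05). The difference of these amplitudes was -0.08 log2, with a 95% interval of -0.24 to 0.08. At an unadjusted p under 0.05, 6 of 14 measured genes of heme synthesis and electron transfer to P450 enzymes were lower in KO and 1 higher. The shares of all genes at that threshold were 11% and 14.1%. After adjustment, 3 of the 14 were lower and 0 higher in KO by limma, against 3.9% and 5.23% of all genes. The 3 lower ones were Slc25a39, a mitochondrial carrier needed for heme synthesis (-0.26 ± 0.04, adjusted p = 0.000242), the heme-degrading oxygenase Hmox1 (-0.32 ± 0.08, adjusted p = 0.0147) and Cpox, a late enzyme of the pathway (-0.25 ± 0.07, adjusted p = 0.0272). Fech, which inserts iron into heme, was rhythmic in both genotypes (amplitude 0.17 in KO and 0.18 in WT, adjusted p = 0.0482 and 0.0305).

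Tfrc is the transferrin receptor, which brings iron into cells. KO pools measured 10.23 and 10.16 (ZT0), 9.78 and 9.80 (ZT4), 9.78 and 9.58 (ZT8), 10.02 and 10.002 (ZT12), 10.38 (ZT16), and finally 10.31 and 10.19 (ZT20). WT pools measured 9.83 and 10.15 (ZT0), 9.67 and 10.16 (ZT4), 9.43 (ZT8), 9.78 and 9.99 (ZT12), 10.06 and 10.31 (ZT16), and finally 10.40 and 10.19 (ZT20). Both genotypes were lowest at ZT8, and the highest time was ZT16 in KO and ZT20 in WT.

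The amplitude of Tfrc was 0.33 ± 0.07 in KO (adjusted p = 0.0236) and 0.32 ± 0.07 in WT (adjusted p = 0.0212), the closest match between genotypes among the 8. The difference was 0.01 log2, with a 95% interval of -0.19 to 0.21. Both calls rest on single pools. The WT call was lost without the WT pool at ZT8 (amplitude 0.24, adjusted p = 0.13) or without WT pool 1 at ZT20 (adjusted p = 0.0714). The KO call was lost without KO pool 2 at ZT8 (adjusted p = 0.0926), without the KO pool at ZT16 (adjusted p = 0.0631) or without KO pool 1 at ZT20 (adjusted p = 0.0682). The level differed by 0.08 ± 0.07 (adjusted p = 0.491). Of 12 measured iron-handling genes, only the ferroxidase Cp was higher in KO (0.57 ± 0.12, adjusted p = 0.00396), and the zinc and iron transporter Slc39a14 and the ferritin receptor Ncoa4 were rhythmic in WT. Tfrc is also high in red cell precursors, of whose 7 markers 2 passed the filter. Alas2 differed by -0.07 ± 0.11 in level (adjusted p = 0.727) and was called rhythmic in KO (amplitude 0.67, peak at ZT4.25, adjusted p = 0.00938) but not in WT, a difference that did not pass the test itself (adjusted p = 0.133), and Slc4a1 was higher in KO by 0.21 ± 0.04 (adjusted p = 0.000629). Their summed level ranged from 8.48 to 8.94 log2 in KO and from 8.46 to 8.90 in WT. Slc4a1 was also listed as a kidney segment marker. It read 8.25 in KO and 8.04 in WT on average, beside 6.89 and 6.89 for Alas2. The sum therefore follows Slc4a1 more than Alas2 and does not read red cell precursors alone. The part of both markers in the result of Tfrc was not tested.

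Gys2 is the liver-type glycogen synthase. KO pools measured 8.01 and 8.37 (ZT0), 8.20 and 8.54 (ZT4), 8.42 and 8.53 (ZT8), 8.31 and 8.54 (ZT12), 8.15 (ZT16), and finally 7.85 and 7.72 (ZT20). WT pools measured 8.54 and 8.72 (ZT0), 8.48 and 8.64 (ZT4), 8.63 (ZT8), 8.88 and 8.85 (ZT12), 8.20 and 8.79 (ZT16), and finally 8.30 and 8.61 (ZT20). KO pools lay below WT pools at every time but ZT4, and the pair of KO pools at ZT20 read lowest of all 22 arrays. At ZT8, with 1 WT pool, and ZT16, with 1 KO pool, the differences were -0.16 ± 0.22 and -0.34 ± 0.22 log2.

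Gys2 was lower in KO by -0.39 ± 0.08 log2 (adjusted p = 0.00244), a ratio of 0.763, with -0.35 within pool 1 arrays (adjusted p = 0.0425) and -0.45 within pool 2 arrays (adjusted p = 0.252). It was the only one of the 8 without a called WT rhythm (0.14 ± 0.08, adjusted p = 0.497), and in KO its amplitude was 0.31 ± 0.08 (adjusted p = 0.0586). With both KO pools of ZT20 left out, the amplitude in KO was 0.20 (adjusted p = 0.747), and the level difference was -0.33 (adjusted p = 0.0304). With the ZT20 pools of both genotypes left out, the level difference of -0.34 was no longer called (adjusted p = 0.0508). The KO rhythm passed the threshold with all pools kept under a filter at the 50th percentile (adjusted p = 0.0397), array medians subtracted (0.0436), a trended robust spread (0.0495) and array weights (0.0174). Leaving out WT pool 1 at ZT16 or KO pool 2 at ZT0 also brought it past the threshold, with adjusted p of 0.0244 and 0.0196. Of 16 measured glycogen genes, 3 were higher in KO, the phosphorylases Pygl (0.36 ± 0.06, adjusted p = 0.000796) and Pygb (0.16 ± 0.03, adjusted p = 0.00536) and the glycogen phosphatase Epm2a (0.19 ± 0.04, adjusted p = 0.00489). The branching enzyme Gbe1 was lower (-0.17 ± 0.04, adjusted p = 0.0154).

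**Figure D2:**
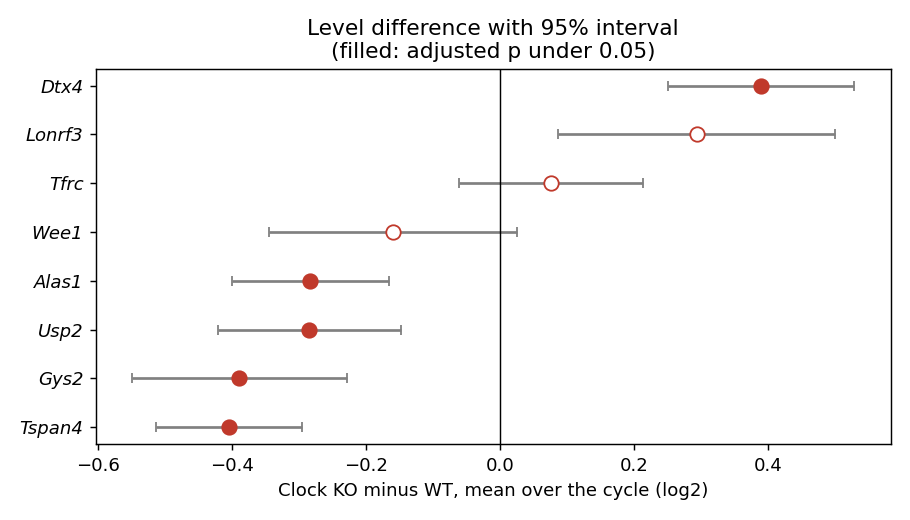
Clock KO minus WT difference of the mean over the cycle in log2 for each of the 8 genes, with bars for the 95% interval and filled points for calls. Tspan4, Gys2, Usp2 and Alas1 lie between -0.41 and -0.28, and Dtx4 at 0.39.

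In order of their WT peaks, the rhythmic output genes fell into an evening set, a night set and Dtx4. Tspan4 peaked at ZT12.2 ± 0.40, Usp2 at ZT12.3 ± 0.55 and Wee1 at ZT12.5 ± 0.54, and Alas1 followed at ZT13.9 ± 0.49. The 95% intervals of these neighbours overlap. Lonrf3 (ZT19.2 ± 0.65) and Tfrc (ZT19.4 ± 0.76) could not be ordered either, and their intervals lie apart from the evening set. Dtx4 peaked at ZT23.7 ± 0.51, with an interval of ZT22.6 to ZT24.7 that overlaps none of the others. For comparison, the fitted WT peaks of the oscillator genes were ZT9.95 for Dbp, ZT11.6 for Per3, ZT14.2 for Per2, ZT17.7 for Cry1 and ZT22.2 for Arntl.

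Every one of the 8 fitted peaks came earlier in KO, but the shift had wide errors. The median shift over all 13967 genes was -1.02 h, and the share of all genes with an earlier KO peak was not taken. The 8 include Gys2, without a called rhythm in either genotype, and Wee1, Usp2 and Lonrf3, without one in KO. Among the 4 genes rhythmic in both genotypes it was -3.07 ± 0.88 h for Dtx4, -2.31 ± 0.79 h for Tspan4, -1.18 ± 0.76 h for Alas1 and -0.65 ± 1.08 h for Tfrc. The 95% intervals of Dtx4 (-4.89 to -1.25 h) and Tspan4 (-3.96 to -0.67 h) lie below 0, and those of Alas1 (-2.75 to 0.40 h) and Tfrc (-2.89 to 1.59 h) include it. The median shift of the 7 genes rhythmic in WT was -2.34 h, beside -2.15 h over all 905 genes rhythmic in WT, so the shift of the output genes is close to that of rhythmic genes at large.

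**Figure D3:**
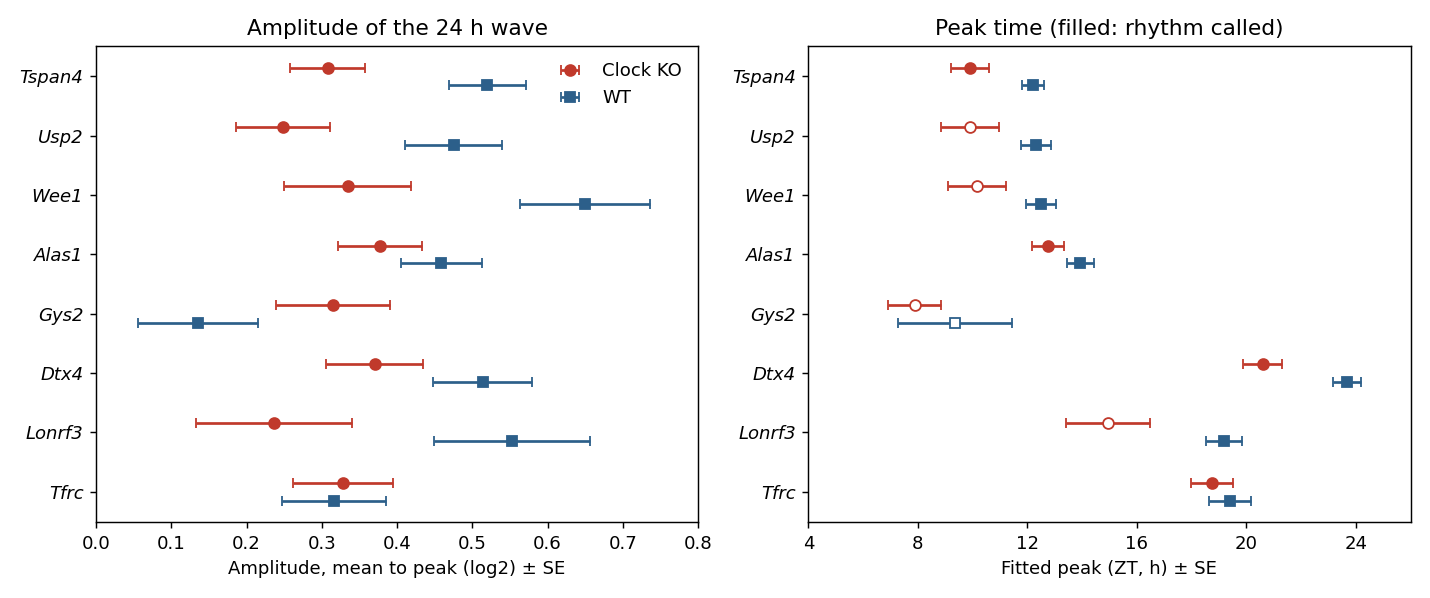
Left, amplitude of the fitted 24 h wave in log2, and right, fitted peak time in ZT hours, with Clock KO as circles above WT squares and bars for the standard error. In the right panel open symbols mark rhythms that were not called. KO amplitudes lie below WT for 6 genes, and each KO peak lies left of its WT peak.

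Amplitudes were smaller in KO for 6 of the 8, the exceptions being Tfrc and Gys2, beside 61.6% of all genes. Of all genes rhythmic in WT, 93.3% had the smaller amplitude in KO, a share that choosing genes on the WT side raises. The difference was largest in Lonrf3 (-0.32 ± 0.15 log2) and Wee1 (-0.32 ± 0.12), then Usp2 (-0.23 ± 0.09), Tspan4 (-0.21 ± 0.07), Dtx4 (-0.14 ± 0.09) and Alas1 (-0.08 ± 0.08). The intervals of the first 4 exclude 0. The test of the whole difference between both waves, in height and phase, passed the threshold over all genes in 0 of the 8 by limma, against 0.043% of all genes. At an unadjusted p under 0.05 it held in 5 of the 8, namely Tspan4 (0.00125), Dtx4 (0.00305), Lonrf3 (0.00769), Wee1 (0.0102) and Usp2 (0.0111), against 7.78% of all genes. The smallest adjusted p was 0.305, for Tspan4. A change of the rhythm was therefore not shown for any single output gene.

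Most rhythm calls in KO were lost when the KO pools of ZT20 were left out. Of the 8, only Alas1 was then called (0.37, adjusted p = 0.00757). Tspan4 then had an amplitude of 0.34 (adjusted p = 0.0576), Dtx4 of 0.44 (adjusted p = 0.109) and Tfrc of 0.42 (adjusted p = 0.14). With all pools kept, these amplitudes were smaller, at 0.31, 0.37 and 0.33. Leaving out ZT20 also gives the KO wave fewer pools and times, and why the calls were lost was not tested. With a free level at each time in place of a wave, Alas1 was again the only KO call, and 5 genes were called in WT. Among the 17 measured core clock genes, 7 were rhythmic in KO and 16 in WT. With all pools kept, a rhythm difference was called by limma in 2 of the 17, Arntl (adjusted p = 0.00124) and Nr1d1 (adjusted p = 0.0316).

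Each time was also compared on its own. Of 48 gene and time pairs, 0 passed the threshold over all genes by limma, against 0.325% of all such pairs, and 17 had an unadjusted p under 0.05, against 7.78%. Of those 17, 1 fell at ZT0 (4.44% of all genes), 1 at ZT4 (3.77%), 1 at ZT8 (5.76%), 5 at ZT12 (7.05%), 5 at ZT16 (7.01%) and 4 at ZT20 (18.7%). The adjusted threshold was passed by 0.0286% of all genes at ZT0, 0.00716% at ZT4, 0.0286% at ZT8, 0.122% at ZT12, 0.0143% at ZT16 and 1.75% at ZT20. Pools of both genotypes did not overlap in 22 pairs with KO lower and 12 with KO higher, where 23% and 24.4% of all gene and time pairs did so, helped by the single pools at ZT8 and ZT16.

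**Figure D4:**
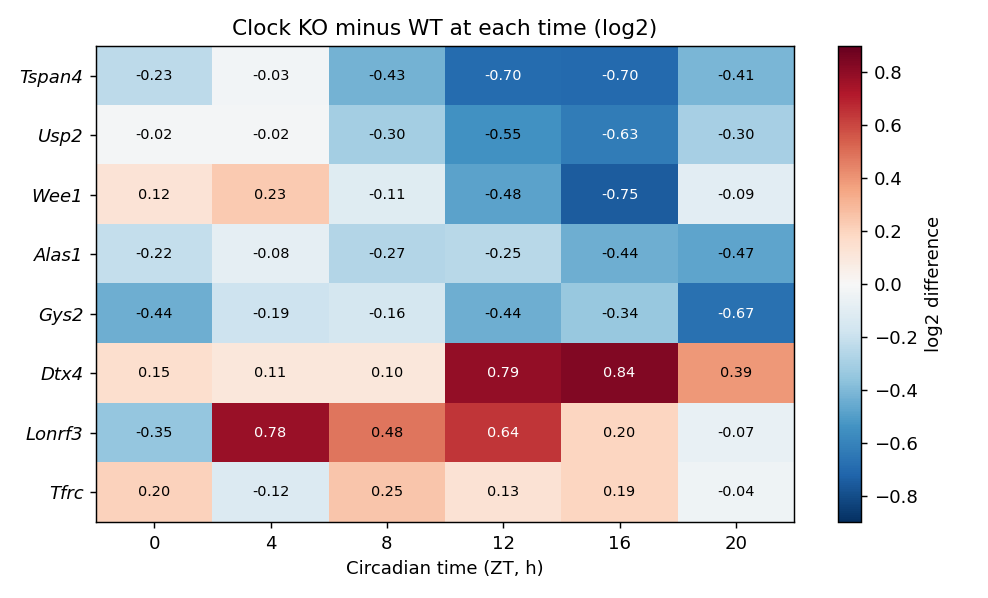
Clock KO minus WT difference in log2 for each output gene (rows) at each circadian time in hours (columns), from red for higher in KO to blue for lower. The widest difference is 0.84 for Dtx4 at ZT16, and the widest with KO lower is -0.75 for Wee1 at ZT16.

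At ZT12, where the evening genes peak in WT, the KO minus WT difference was -0.70 ± 0.13 log2 for Tspan4 (adjusted p = 0.0633), -0.55 ± 0.17 for Usp2 (adjusted p = 0.362), -0.48 ± 0.23 for Wee1 (adjusted p = 0.711) and -0.25 ± 0.12 for Alas1 (adjusted p = 0.723). At ZT16 the single KO pool lay below both WT pools by -0.70 ± 0.16 for Tspan4, -0.63 ± 0.21 for Usp2 and -0.75 ± 0.28 for Wee1. At ZT0 and ZT4 these 3 genes differed by at most 0.23 log2 in either direction. Alas1 and Gys2 had their widest differences at ZT20, -0.47 ± 0.12 (adjusted p = 0.063) and -0.67 ± 0.18 (adjusted p = 0.076). Lonrf3 was widest at ZT4 (0.78 ± 0.23), which did not pass the test either.

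Pools of 1 time were not equally alike. The KO pools at ZT12 had the widest median gap over the 8 genes, 0.30 log2, beside 0.08 in the WT pools at ZT12. There pool 2 read higher than pool 1 by 0.65 for Wee1, 0.64 for Usp2 and 0.37 for Tspan4 and lower by 0.45 for Dtx4, which in each case placed pool 2 nearer to the WT pools.

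Across the 22 arrays, Wee1, Usp2, Tspan4 and Alas1 varied together, Dtx4 ran opposite to them, and Lonrf3 and Tfrc stood apart. These correlations describe arrays that share the same genotype and time structure. Usp2 and Tspan4 had a Pearson r of 0.941, Usp2 and Wee1 of 0.880, and Tspan4 and Alas1 of 0.851. Dtx4 had r of -0.931 with Usp2 and -0.926 with Tspan4. Gys2 had r of 0.692 with Tspan4 but 0.432 with Wee1. Lonrf3 had r between -0.203 and 0.496 with the other 7, and Tfrc between -0.399 and 0.496.

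Among all genes kept, the array profile most like that of both Usp2 and Tspan4, by Pearson r over the 22 arrays, was that of Per3, at 0.949 and 0.941. The closest to Wee1 was Nampt, the rate-limiting enzyme of NAD salvage (0.904), followed by Lonrf1 (0.901). The closest to Lonrf3 was the repressor Cry1 (0.813), and next came Creb1 (0.784). Ak4 (0.898) and Gm4956 (0.866) came closest to Alas1, Scd2 (0.908) and Tardbp (0.846) to Tfrc, and Itgb6 (0.942) and the monocarboxylate transporter Slc16a1 (0.923) to Dtx4. The closest to Gys2 were Lipo3 (0.912) and the organic anion transporter Slco1a6 (0.904), which lies on chromosome 6 as Gys2 does.

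Other genes reported to follow the clock behaved in mixed ways. Of 13 measured, 8 were rhythmic in WT and 4 in KO, and 2 were higher and 3 lower in KO. A rhythm difference was called by limma in 1 of them, Ypel2 (adjusted p = 0.0270), against 0.043% of all genes. Its amplitude was 0.13 ± 0.06 in KO and 0.68 ± 0.07 in WT. Avpr1a (0.75 ± 0.07, adjusted p = 6.49e-07) and Ypel2 (0.45 ± 0.06, adjusted p = 8.01e-05) were higher, and both peaked late in the WT night, at ZT23.1 and ZT21.4. Lpin1 (-0.34 ± 0.07, adjusted p = 0.00368), Herpud1 (-0.22 ± 0.05, adjusted p = 0.00482) and Noct (-0.23 ± 0.07, adjusted p = 0.0323) were lower and peaked in WT between ZT10.6 and ZT14.4.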

How the data were processed

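Kidney RNA of 11 KO and 11 WT pools, 100 ng each, was read on mouse gene arrays. The authors deposited log2 values made by RMA, per the submitters' processing notes. For the software version and genome build, the entry is "not given in the sources used here". Scanner files were not used. Of 35556 probe sets, 21789 carry 1 gene symbol, 1621 several and 12146 none in the platform annotation. Probe sets under the 30th percentile of 1-symbol means (log2 5.21) were dropped and the brightest was kept per gene. Cdkn1a and Por are not analysed here.

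A cosine wave of 24 h per genotype was fitted with limma 3.58.1 (R 4.3.3) over all 22 arrays, and a mean per genotype and time for single times, with Benjamini-Hochberg adjustment over 13967 genes. The limma script was tested on simulated data. The labels call arrays pools of separate mice, and nothing more about separate experiments, so p-values do not measure a spread between experiments. For single times they measure the spread between pools of the same genotype and time. For level and rhythm they measure the spread of pools around the fitted wave, which also holds departures of the time means from that wave. In both fits limma shares information on spread across genes. The number of arrays limits the precision. The genes and lists were chosen with earlier results of these data known. List genes were named by their smallest adjusted p, up to 4 a list, and where a count was 5 or fewer also after their values were seen. Alternatives covered filter, scaling, spread, pool number and left-out pools.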

Additional observations from a re-analysis of the deposited data

How the results depend on the processing

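Of the 8 genes, 5 were called for level, 7 for WT rhythm, 4 for KO rhythm and 0 for a rhythm difference, and 0 gene and time pairs were called. Leaving out each pool in turn gave 5 to 6, 6 to 7, 3 to 5, 0 and 0 to 3. The 3 pairs came without KO pool 2 at ZT12 (Dtx4, Tspan4 and Usp2 at ZT12). That pool lay nearer to WT than pool 1, and the lone KO pool left there is assumed to vary like the other groups. Called pairs numbered 3 with a filter at the 50th percentile, 1 with array medians subtracted, 4 with repeated quantile normalization and 3 with a trended robust spread. KO rhythm was called in 7 genes with array weights, 1 without both KO pools at ZT20, 1 with a free level at each time, and 0 within pool 1 and 0 within pool 2 arrays, which hold fewer samples. Without the ZT20 pools of both genotypes, chosen after seeing the data, KO rhythm was called in 1 gene and level in 3 (Alas1, Dtx4 and Tspan4). Within pool 2 arrays level was called in 0 genes and WT rhythm in 1, and Wee1 (0.087) and Tfrc (-0.151) changed direction in level. The cause was not tested. A rhythm difference was called in 0 genes under every alternative run.

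Pool numbers are shared between genotypes. Deviations of KO and WT pools of the same number correlated at 0.361, 0.394, 0.00355 and 0.181 at ZT0, ZT4, ZT12 and ZT20. Over all 45 pairs of groups such correlations ran from -0.411 to 0.547, with 25 over 0.1. These values do not settle whether pools of the same number share an effect. The numbers were not taken as pairs in the results above. With the pool number as a replicate block, level was called in 6 genes, with Lonrf3 added (0.29, adjusted p = 0.0398), WT rhythm in 7, KO rhythm in 5, with Gys2 added (0.30, adjusted p = 0.0268), a rhythm difference in 0 and a single time in 1 pair (Gys2 at ZT20).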
